A study of Mus musculus with 12 samples.

Results

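The interferon-stimulated genes examined here were a list of 49 mouse symbols, drawn from the sensors, transcription factors, antiviral enzymes and other proteins that cells make after contact with an interferon. Each was matched to the probe sets of an Affymetrix array that carried exactly 1 gene symbol, and the probe set with the highest mean over 12 arrays stood for the gene. This gave 46 members among the 18194 genes with such a probe set. Of the other symbols, Rigi is the newer name of Ddx58, the only probe set of Isg15 carried a second symbol, and Ifi44 had no probe set. Total RNA came from the pancreas of 12 mice, each 8 weeks old by label, with 1 array per mouse and 3 mice in each of 4 groups. The mice were of 2 substrains: C57BL6/J from Jackson (J) and C57BL6/NHsd from Harlan (NHsd). In each substrain 3 mice had chronic pancreatitis brought on by cerulein, a peptide that overdrives the enzyme-secreting acinar cells, and 3 had received saline. No engineered allele or further agent is named for any group, substrain and vendor cannot be told apart, and the dose and schedule of cerulein are not given in the sources used here. The labels call the saline mice female and state no sex for the cerulein mice. The comparisons ask how the 2 substrains differ in these genes without and with pancreatitis, and how the genes change with cerulein in each.

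Interferons are secreted proteins that bind surface receptors and activate the JAK kinases. Type I interferons act largely through an element called the ISRE in the promoters of many antiviral genes, whereas interferon gamma acts mainly through an element called GAS. The induced proteins sense viral RNA, block translation or release of virus, and, in the case of the GTPases, attack the vacuoles of intracellular microbes; many of them are also made in sterile inflammation.

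Promoter sequence was searched because these elements define the family in textbooks and because members moved together in the arrays. In the 250 bases before the annotated start, from RefSeq on build GRCm38.p6, the letters GAAANNGAAA or, on the other strand, TTTCNNTTTC (an ISRE core) were present for 936 of 27025 genes, or 3.46%, and for 14 of the 33 members with a sequence, or 42.4%. The letters TTCNNNGAA (a GAS core, the same on both strands) were present for 2197 genes, or 8.13%, and for 10 of the 33 members, or 30.3%. Windows of the 160 bases before the start are given below 5′ to 3′ on the gene's own strand for 7 members that show how the letters are laid out: genes with ISRE cores alone (Ifit1, Ifit3), genes with both (Oas1a, Bst2), and GTPases with both (Gbp7, Igtp, Irgm2). Capitals mark the matches.
Ifit1, chr19:34640729-34640888, plus strand: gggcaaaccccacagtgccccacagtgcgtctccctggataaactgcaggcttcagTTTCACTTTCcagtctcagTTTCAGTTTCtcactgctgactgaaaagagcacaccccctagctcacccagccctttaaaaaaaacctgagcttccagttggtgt
Ifit3, chr19:34583369-34583528, plus strand: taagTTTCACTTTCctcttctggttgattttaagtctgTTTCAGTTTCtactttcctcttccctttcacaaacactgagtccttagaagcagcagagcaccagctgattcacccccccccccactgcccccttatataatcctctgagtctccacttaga
Oas1a, chr5:120907526-120907685, minus strand: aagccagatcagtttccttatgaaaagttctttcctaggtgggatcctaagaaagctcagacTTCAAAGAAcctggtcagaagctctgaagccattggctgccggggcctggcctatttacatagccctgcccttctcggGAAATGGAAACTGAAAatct
Bst2, chr8:71537473-71537632, minus strand: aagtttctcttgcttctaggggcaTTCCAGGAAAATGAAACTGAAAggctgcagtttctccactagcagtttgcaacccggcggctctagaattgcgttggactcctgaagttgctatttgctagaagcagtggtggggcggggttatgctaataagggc
Gbp7, chr3:142530176-142530335, plus strand: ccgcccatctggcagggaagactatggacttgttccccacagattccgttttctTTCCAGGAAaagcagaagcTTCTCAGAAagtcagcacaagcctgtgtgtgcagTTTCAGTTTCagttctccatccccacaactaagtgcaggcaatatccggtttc
Igtp, chr11:58199396-58199555, plus strand: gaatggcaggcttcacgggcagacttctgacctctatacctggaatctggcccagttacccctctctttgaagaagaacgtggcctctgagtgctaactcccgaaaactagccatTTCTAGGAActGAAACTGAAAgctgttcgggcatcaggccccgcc
Irgm2, chr11:58214817-58214976, plus strand: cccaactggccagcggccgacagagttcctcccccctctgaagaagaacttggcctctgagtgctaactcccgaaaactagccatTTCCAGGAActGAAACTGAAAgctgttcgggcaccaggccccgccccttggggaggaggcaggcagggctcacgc
Both Ifit windows hold 2 separate ISRE cores. In Oas1a and Bst2 a pair of ISRE cores overlaps, and in Bst2 the GAS core runs into the first of them. Igtp and Irgm2, both on chromosome 11, share an identical run of 38 bases that ends inside the GAS core, and in both the ISRE core follows the GAS core after 2 bases. A match of these letters is a description of the sequence, not a measured binding site.

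Signals were given on a log2 scale; the lowest value, 2.39, was the same on every array, and the highest was 16.4. Of the 46 members, 19 lay above log2 4 on all 12 arrays and 7 on none (Irf7, Stat2, Herc6, Oas3, Oasl1, Mx1 and Mx2). A gene was tested where it exceeded log2 4 on at least 3 arrays, which 35 members and 8505 of all genes did. The median standard error of a difference between 2 groups was 0.20, so 3 mice a group limit what can be called. Acinar markers were high on every array, with summed signals of 212816 to 221465 after saline and 143918 to 192061 after cerulein. An array correlated with the others of its group at 0.983 to 0.994 on average; the lowest was J cerulein replicate 1, whose poly-A spike-ins averaged log2 7.10, against 5.88 to 6.08 on the other 5 cerulein arrays. Hybridization spike-ins averaged log2 6.41 to 6.81 on the cerulein arrays and 7.96 to 9.09 on the saline arrays, and the median of all genes tested was 0.49 higher after cerulein in NHsd and 0.47 higher in J, so that changes with cerulein are best read relative to that shift.

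**Figure D1:**
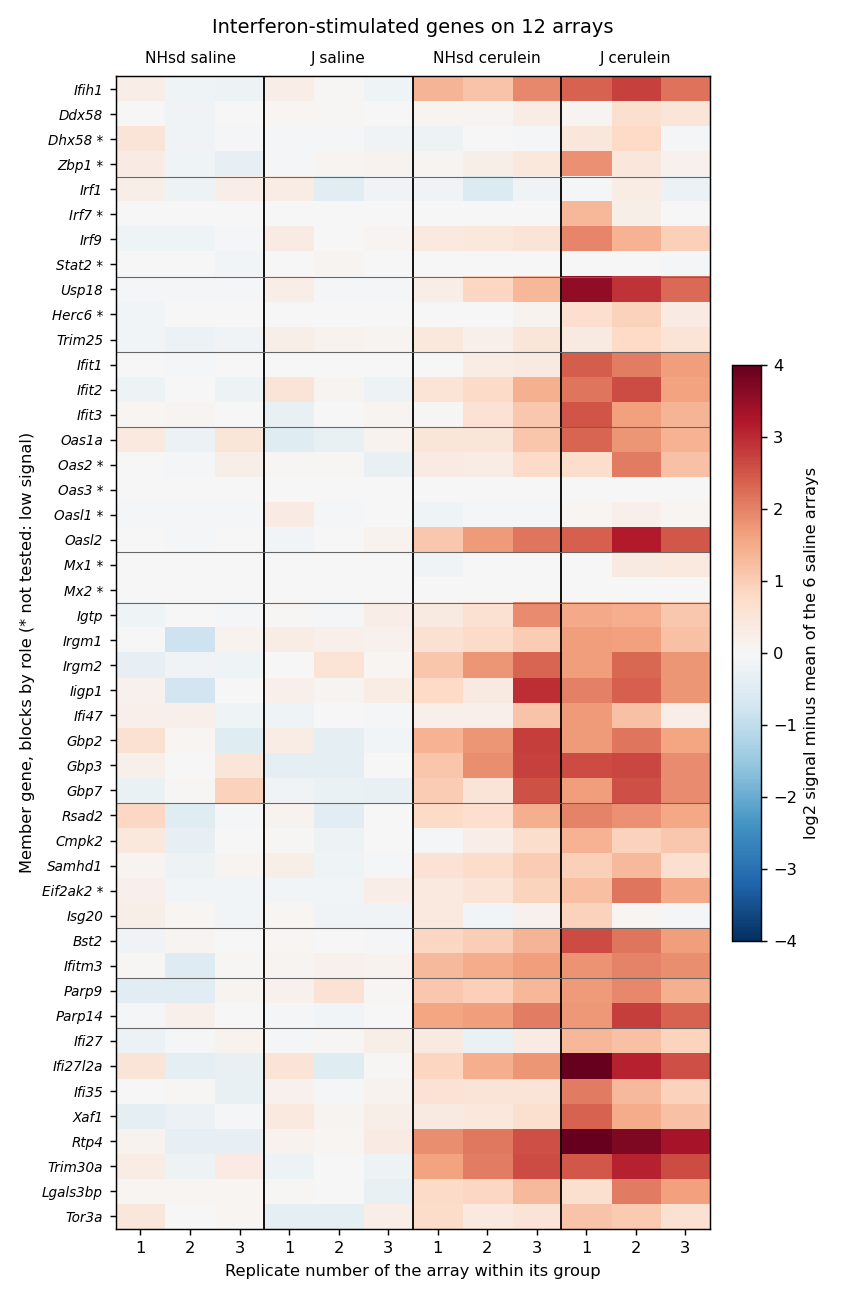
Each row is 1 of the 46 members and each column 1 of the 12 arrays, grouped by substrain and treatment. Colour gives the log2 signal minus the mean of the gene's 6 saline arrays, lines between rows separate the roles, and an asterisk marks the 11 members too dim to be tested. The J cerulein columns are the reddest for most rows, and NHsd cerulein replicate 3 is redder than the other NHsd cerulein arrays.

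After cerulein, interferon-stimulated genes stood higher in J than in NHsd pancreas. Among the 35 tested members 34 had a positive difference, and in 19 all J arrays lay above all NHsd arrays. Gbp2 had a negative difference by its brightest probe set (-0.16) and a positive one by its other probe set (0.13). The test called 3 members, all higher in J: Usp18, Ifit1 and Rtp4. In this comparison 0.165% of all genes tested were called higher, and in 7.94% all J arrays lay above all NHsd arrays. The median member differed by 0.68 on the log2 scale, against 0.05 for all genes tested. Ifit1 passed the filter only through its J cerulein arrays and so had to differ. Usp18, Ifit2 and Oasl2, above log2 4 on 4, 4 and 5 arrays, also needed their J cerulein arrays to pass it. Their differences were thus favoured by the filter. Over all 46 members with no filter the median was 0.58, 1 member (Ifit1) was called, and 0.044% of 18194 genes were called higher. With only the 2 cerulein groups in the fit of the 35 none was called (Ifit1: limma, adjusted p = 0.107), with 19 of them and 410 of the 8505 genes higher in J at an unadjusted p below 0.05. In whole tissue, more cells that express a gene cannot be told apart from more RNA per cell.

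Usp18, the protease that takes ISG15 off proteins and also dampens signalling at the type I interferon receptor, measured log2 2.95, 3.53 and 4.02 on the NHsd cerulein arrays and 6.24, 5.58 and 4.96 on the J cerulein arrays. The lowest J array stood well above the highest NHsd array, and only 1 of the 3 NHsd arrays exceeded log2 4. The difference was 2.10 (SE 0.31; limma, adjusted p = 0.016), a measured 4.28-fold whose size is inexact because the NHsd mean was so low. Without J cerulein replicate 1 it was 1.77 (limma, adjusted p = 0.0561), and the call was also lost without NHsd cerulein replicate 1 (1.82) or replicate 2 (2.11).

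Ifit1, which binds foreign RNA and blocks its translation, measured log2 2.78, 3.05 and 3.12 on the NHsd cerulein arrays and 5.20, 4.81 and 4.44 on the J cerulein arrays. All NHsd cerulein arrays were under log2 4, as were the saline arrays, which ran from 2.72 to 2.78. J was therefore at least 1.76-fold higher, counted against log2 4 (measured difference 1.83, SE 0.19; limma, adjusted p = 0.00116).

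Rtp4, an interferon-induced receptor transporter protein, measured log2 6.28, 6.53 and 7.00 on the NHsd cerulein arrays and 8.85, 8.15 and 7.72 on the J cerulein arrays. The groups did not overlap, and the difference was 1.64, or 3.11-fold (SE 0.27; limma, adjusted p = 0.0326). The call was lost without J cerulein replicate 1 (1.33, limma, adjusted p = 0.0759) and was kept only when the array left out was NHsd cerulein replicate 3 or J cerulein replicate 3. The size of the difference stayed between 1.33 and 1.90 in those fits.

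**Figure D2:**
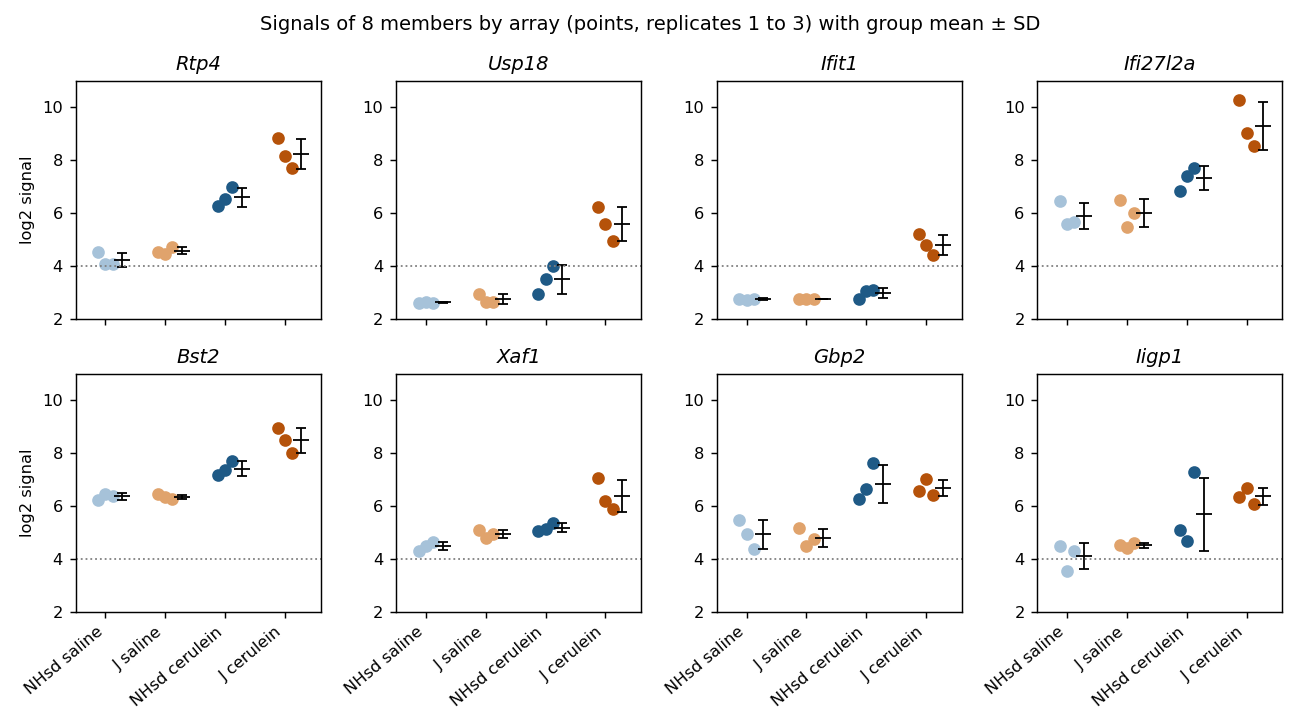
Log2 signal of 8 members on each array (points, replicates 1 to 3 from left to right) with the group mean ± SD of 3 mice beside them; the dotted line is log2 4. In Rtp4, Usp18, Ifit1, Ifi27l2a, Bst2 and Xaf1 every J cerulein point lies above every NHsd cerulein point, whereas in the GTPases Gbp2 and Iigp1 these 2 groups overlap.

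The other members were split by role. Of the 4 sensors of foreign nucleic acid, Ifih1 (MDA5, a sensor of long double-stranded RNA) measured 4.88 to 5.68 in NHsd and 5.93 to 6.50 in J after cerulein. Those groups did not overlap, but the difference of 0.95 missed the threshold (limma, adjusted p = 0.187). Ddx58 (RIG-I) overlapped between the substrains, at 4.41 to 4.62 and 4.43 to 4.94. Dhx58 and Zbp1 exceeded log2 4 on 1 array each, both of J cerulein (4.01 on replicate 2 and 4.63 on replicate 1), and were not tested.

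Among the transcription factors, Irf9, a DNA-binding factor of the type I interferon response, measured 4.28 to 4.41 in NHsd and 4.84 to 5.84 in J after cerulein, without overlap (difference 0.99; limma, adjusted p = 0.129). Irf1, induced mainly by interferon gamma, overlapped at 4.48 to 4.89 and 4.81 to 5.32. Irf7, which amplifies type I interferon production, lay at 2.39 or 2.40 on every array other than J cerulein replicates 1 (3.71) and 2 (2.62). Stat2 was under log2 4 throughout. Of the ISG15 pathway, Trim25, a ubiquitin ligase of the RIG-I route, overlapped between substrains, and Herc6, the ligase that attaches ISG15 in mice, was under log2 4 on all arrays, at 2.52 to 2.64 in NHsd and 2.84 to 3.42 in J after cerulein.

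The other IFIT genes were also higher on every J array than on any NHsd array. Ifit2 measured 3.39, 3.60 and 4.25 in NHsd and 4.97, 5.44 and 4.46 in J after cerulein. Ifit3 measured 4.05, 4.58 and 5.09 against 6.52, 5.66 and 5.37. In neither did the groups overlap, and both differences, 1.21 and 1.28, missed the threshold (limma, adjusted p = 0.157 for each). The OAS genes, which encode oligoadenylate synthetases and relatives, had 2 tested members: Oas1a differed by 1.12 and Oasl2, a relative of the synthetases, by 1.05, both without overlap and both short of the threshold (limma, adjusted p = 0.193 and 0.192). Oas2 exceeded log2 4 only on J cerulein replicates 2 (5.19) and 3 (4.29), and Oas3 and Oasl1 on no array. The dynamin-like Mx1 and Mx2 stayed under log2 4 on all 12 arrays, with a highest value of 3.02.

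The 8 interferon-inducible GTPases differed by -0.16 to 0.71 after cerulein, none was called (limma; 1 was higher in J at an unadjusted p below 0.05), and in 1, Irgm1, a regulator of the other immunity-related GTPases, the groups did not overlap (5.46 to 5.85 in NHsd, 6.02 to 6.53 in J). Among the other 27 tested members, 18 did not overlap and the median difference was 0.90. The gap between these sets was not tested. Of all genes tested, 0.165% were called higher in J and 6.46% were higher at an unadjusted p below 0.05 (limma). In 7.94% of all genes every J array lay above every NHsd array. Gbp2, a guanylate-binding protein, measured 6.24, 6.63 and 7.61 in NHsd and 6.57, 7.01 and 6.42 in J. Iigp1, which coats the vacuoles of parasites, measured 5.10, 4.67 and 7.26 in NHsd and 6.32, 6.68 and 6.06 in J. In both genes NHsd cerulein replicate 3 was the highest of the 12 arrays. Without that array Iigp1 differed by 1.47 (limma, adjusted p = 0.0331), whereas the Gbp2 values overlapped with or without it.

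Of the other antiviral enzymes, Rsad2 (viperin) and Cmpk2, a nucleotide kinase encoded beside it, did not overlap (differences 0.82 and 0.83), whereas Samhd1, which degrades deoxynucleotides, and the exonuclease Isg20 did (0.18 and 0.17). Eif2ak2 (PKR), which halts translation on double-stranded RNA, exceeded log2 4 only on J cerulein replicates 2 (4.81) and 3 (4.18). Bst2 (tetherin), which holds budding virus at the cell surface, measured 7.18, 7.34 and 7.71 in NHsd and 8.96, 8.48 and 8.01 in J, a difference of 1.08 that missed the threshold (limma, adjusted p = 0.0924). Ifitm3, which blocks entry of virus, differed by 0.40 without overlap. Parp9 did not overlap (0.58) and its partner Parp14 did (0.52).

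Among the remaining members, Ifi27l2a, an interferon-induced small hydrophobic protein, measured 6.83, 7.42 and 7.73 in NHsd and 10.30, 9.04 and 8.53 in J after cerulein. This was one of the widest gaps of the family, at 1.96, but the spread within J was wide too (SE 0.42; limma, adjusted p = 0.129). Its relative Ifi27 measured 9.52, 8.92 and 9.50 against 10.51, 10.34 and 10.06, a tighter difference of 0.99 (SE 0.19; limma, adjusted p = 0.0622). Xaf1, a pro-apoptotic protein that binds the inhibitor XIAP, differed by 1.20 (limma, adjusted p = 0.0996) and Ifi35 by 0.90, both without overlap. Trim30a, Lgals3bp and Tor3a overlapped between the substrains, with differences of 0.39 to 0.64.

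**Figure D3:**
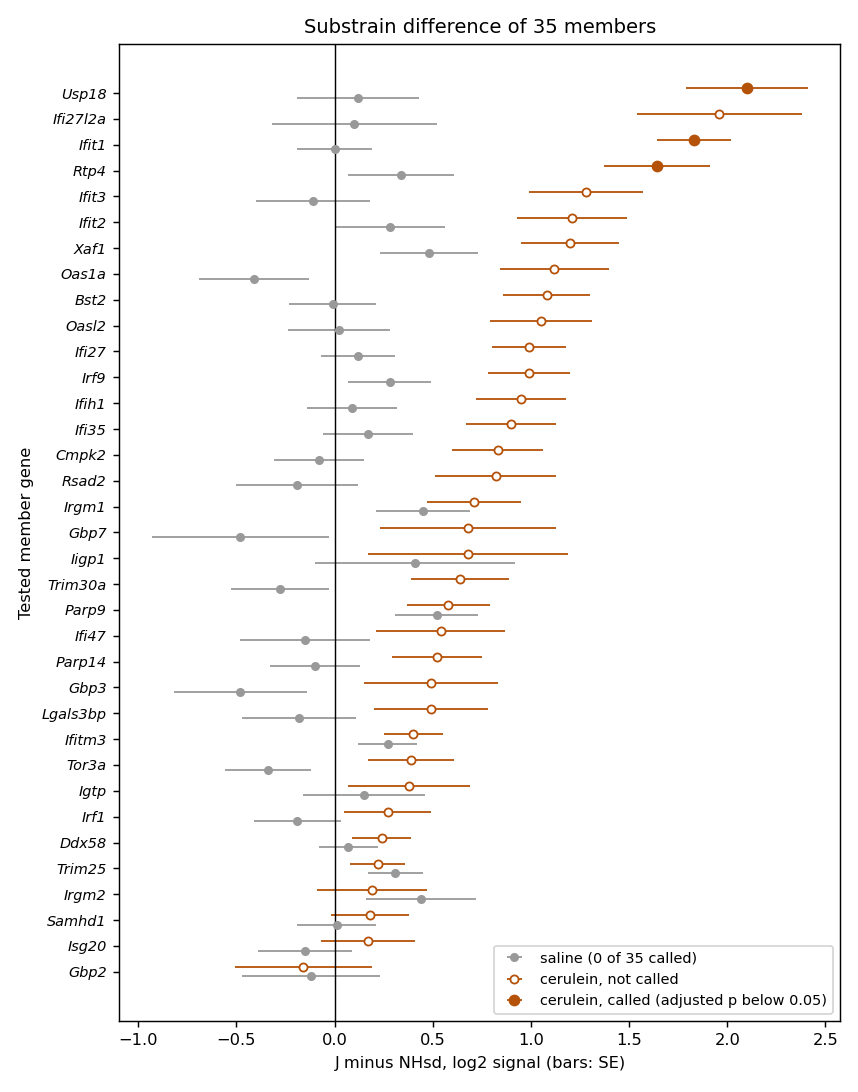
Difference J minus NHsd in log2 signal for each of the 35 tested members, in saline (grey) and after cerulein (orange), with bars of 1 SE; filled orange points passed the test (limma, adjusted p below 0.05). The grey points scatter around 0 from -0.48 to 0.52, and the orange points lie to the right of 0 except for Gbp2, with Usp18, Ifit1 and Rtp4 filled.

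In saline none of the 35 members was called between the substrains (limma; 0.0588% of all genes were called in either direction), and 1, Parp9, passed an unadjusted p of 0.05 with a higher value in J, against 4.8% of all genes. Differences ran from -0.48 to 0.52, with a median of 0.02 against 0.06 for all genes. In 6 members all J arrays lay above all NHsd arrays (Irf9, Trim25, Irgm1, Irgm2, Ifitm3 and Xaf1), against 8.41% of all genes, and in 1, Lgals3bp, all lay below, against 4.19%. Usp18 measured 2.62, 2.65 and 2.62 in NHsd and 2.96, 2.65 and 2.65 in J, near the floor. Rtp4 measured 4.54, 4.09 and 4.09 in NHsd and 4.54, 4.48 and 4.73 in J, and Ifi27l2a 6.48, 5.59 and 5.66 against 6.52, 5.49 and 6.02. These groups touched or overlapped in all 3 genes.

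With cerulein, most members rose in both substrains. In NHsd 25 of the 35 rose and none fell by the test (limma; 48.7% of all genes were called higher), with a median of 0.88 against 0.49 for all genes as fitted, or 0.71 with members under log2 4 in a whole group set at their bound. In J 32 rose (47.8% of all genes were called higher), with a median of 1.74 against 0.47, or 1.43 at the bounds. Ifit1, Usp18, Ifit2, Oasl2, Parp14 and Trim30a exceeded log2 4 only on cerulein arrays. Ifih1, Irf9, Oas1a, Irgm2, Gbp3, Gbp7 and Tor3a exceeded it on fewer than 3 saline arrays. All of these members needed cerulein arrays to pass the filter, so it favoured their rises. After the arrays were set to equal medians, which takes out the shift common to all genes, 10 members rose and 1, Irf1 (-0.96), fell in NHsd, where 20.2% of all genes were called higher and 28.8% lower. In J 27 members rose under that scaling, with 20.9% of all genes called higher. The members' medians were then 0.29 in NHsd and 1.17 in J. The lower spike-ins of the cerulein arrays and the treatment cannot be told apart. Both substrain effects share arrays with the comparison after cerulein, so they are set beside it as values only.

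In NHsd the 5 called members with the largest fitted differences were Rtp4, Trim30a, Irgm2, Gbp2 and Parp14; those under log2 4 on all saline arrays give bounds only, which have no rank. Rtp4 went from 4.54, 4.09 and 4.09 after saline to 6.28, 6.53 and 7.00 after cerulein (5.16-fold; limma, difference 2.37, SE 0.27). Trim30a, a TRIM protein of inflammatory signalling, went from 3.29 to 3.83 up to 5.12 to 6.12, at least 3.01-fold, and Irgm2 from 3.33 to 3.52 up to 4.77 to 5.98, at least 2.62-fold. Gbp2 went from 4.36 to 5.46 up to 6.24 to 7.61, 3.76-fold, and Parp14, an ADP-ribosyltransferase, from 2.51 to 2.75 up to 4.13 to 4.60, at least 1.24-fold. Trim30a, Irgm2 and Parp14 needed their cerulein arrays to be tested. None of the cerulein arrays of the 5 genes overlapped with saline, and the 5 calls were kept with equal medians. The 10 members that did not pass in NHsd were Ddx58, Irf1, Ifit1, Ifit3, Oas1a, Ifi47, Cmpk2, Isg20, Ifi27 and Tor3a.

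In J the 5 with the largest fitted differences, with the same limit on their order, were Rtp4, Ifi27l2a, Trim30a, Usp18 and Oasl2. Rtp4 went from 4.54, 4.48 and 4.73 to 8.85, 8.15 and 7.72 (12.6-fold; limma, difference 3.66, SE 0.27). Ifi27l2a went from 6.52, 5.49 and 6.02 to 10.30, 9.04 and 8.53, 9.70-fold, and Trim30a from 3.29 to 3.50 up to 5.97 to 6.59, at least 4.68-fold. All J cerulein arrays of these 3 genes lay above all J saline arrays. Usp18 and Oasl2 were under log2 4 on every J saline array, so their rises are bounds, of at least 3.02-fold and at least 2.29-fold. Trim30a, Usp18 and Oasl2 needed cerulein arrays to be tested. The 3 members that did not pass in J were Ddx58, Irf1 and Isg20. These 3 also did not pass in NHsd.

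The counts by role stand beside 47.8% of all genes called higher in J and 48.7% in NHsd, or 20.9% and 20.2% with equal medians. By role, the IFIT genes rose in J in 3 of 3 members, Ifit3 by 1.89, Ifit1 at least 1.76-fold and Ifit2 at least 1.94-fold. In NHsd 1 of 3 was called, Ifit2, whose rise has no size because its cerulein mean was 3.75 and all its saline arrays were under log2 4, and that call was lost with equal medians. The GTPases rose in 8 of 8 members in J, by 1.12 to 1.87 in 6 of them and at least 4.09-fold in Gbp3 and 3.29-fold in Gbp7. In NHsd 7 of 8 rose, Irgm2 as given above and 6 by 1.02 to 1.91, and Ifi47 (0.43) did not pass; with equal medians these counts were 6 and 3. Both membrane restriction factors rose in both substrains: Bst2 by 2.14 in J and 1.05 in NHsd, and Ifitm3 by 1.74 and 1.62. With equal medians the NHsd call of Bst2 was lost. Irf9 rose in J by 1.29 and in NHsd at least 1.26-fold, and the fitted NHsd difference of 0.58 became -0.01 with equal medians. Trim25 rose by 0.42 in J and 0.51 in NHsd, which became -0.16 and -0.07 with equal medians.

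**Figure D4:**
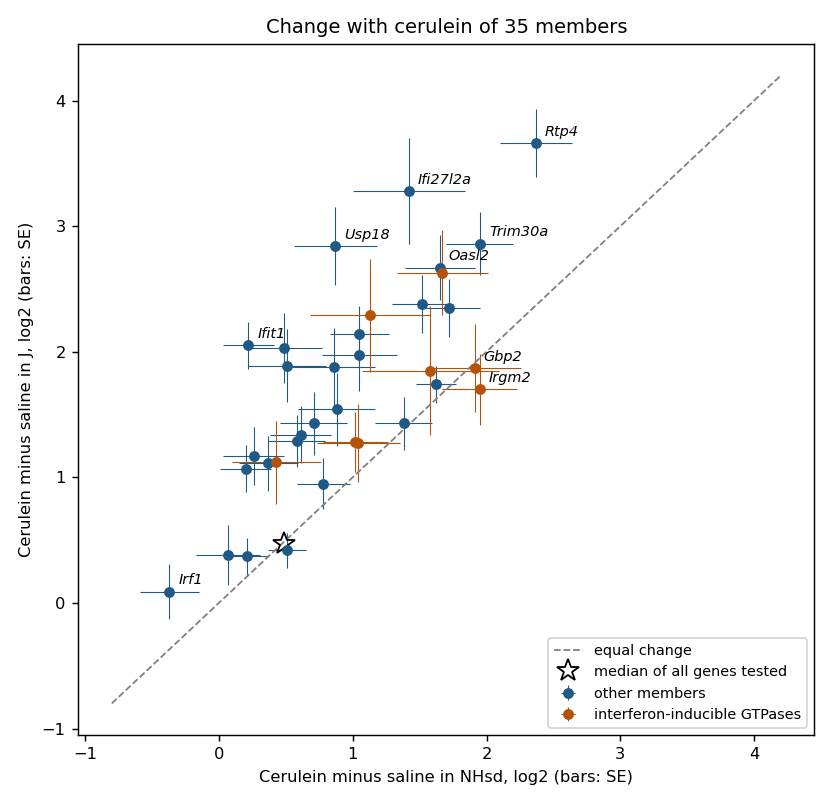
Change with cerulein (cerulein minus saline, log2) in NHsd on the horizontal axis and in J on the vertical axis for the 35 tested members, with bars of 1 SE, the line of equal change, and a star at the median of all genes (0.49 and 0.47). Most members lie above the line, including Rtp4, Ifi27l2a, Usp18 and Ifit1, while Gbp2 and Irgm2 lie on or just below it.

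The test of whether the change with cerulein itself differed between substrains called none of the 35 members (limma; 0.0118% of all genes were called higher), with 17 of them at an unadjusted p below 0.05 and a larger rise in J, against 3.17% of all genes. The difference was positive in 32 members and negative in 3 (Trim25, Irgm2 and Gbp2), with a median of 0.73 against -0.01; these fitted values include members under log2 4 in whole groups. The other probe set of Gbp2 had a larger measured rise in J (2.19) than in NHsd (1.99), with all its saline arrays under log2 4. Ifit1 came nearest to the threshold (limma, adjusted p = 0.0574), but it lay under log2 4 on all saline and all NHsd cerulein arrays, so its difference has no size, and it passed the filter only through J cerulein. The difference of Ifi27l2a was 1.86 (SE 0.60) and missed the threshold.

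Most members were highest on the same mouse among NHsd cerulein and lowest on the same mouse among J cerulein. In NHsd, replicate 3 was the highest of its group for 30 of the 35 members (85.7%), compared with 37.4% of all genes tested, and replicate 1 the lowest for 24 (68.6%), compared with 22.0% of all genes. In J, replicate 3 was the lowest for 25 members (71.4%), compared with 38.2% of all genes, and replicates 1 and 2 were highest for 18 and 17 (51.4% and 48.6%), compared with 42.9% and 43.9%. J replicate 1 was also the lowest for 9 members (25.7%), compared with 44.5% of all genes. The array with the highest value of all 12 was J cerulein replicate 1 for 17 members, J cerulein replicate 2 for 12, NHsd cerulein replicate 3 for 5 and J saline replicate 1 for 1, Irf1. Left out, NHsd cerulein replicate 3 raised the members called after cerulein from 3 to 10 (Ifih1, Ifit2, Ifit3, Oasl2, Iigp1, Bst2 and Ifi27 joined), with 0.964% of all genes called higher. J cerulein replicate 3, left out, raised them to 6, with Irf9, Bst2 and Xaf1, and 0.176% of all genes were then called higher. Without J cerulein replicate 1, NHsd cerulein replicate 1 or NHsd cerulein replicate 2 in turn, 1 member, Ifit1, was left.

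The summed signal of macrophage markers varied along with these mice, while single markers did not all do so. All 11 macrophage markers were tested and all 11 rose with cerulein in both substrains, beside 48.7% of all genes in NHsd and 47.8% in J. Adgre1, Cd68, Aif1, Cd14 and Fcgr1 exceeded log2 4 only on cerulein arrays, so the filter favoured their rises. With equal medians 10 of the 11 macrophage markers rose in NHsd and 11 in J, beside 20.2% and 20.9% of all genes. Their summed signal was 552 to 767 in NHsd and 513 to 837 in J after saline, when Adgre1, Cd68, Aif1, Cd14 and Fcgr1 were under log2 4 on every array. After cerulein it was 4934, 5230 and 5966 on NHsd replicates 1 to 3 and 7790, 8162 and 5752 on J replicates 1 to 3, so the groups overlapped and replicate 3 was the highest array in NHsd and the lowest in J, as for most members. The markers Csf1r, Cd68, Cd14 and C1qb were not highest on NHsd replicate 3. In J, Adgre1, Csf1r and Mpeg1 were lowest on replicate 1 rather than replicate 3. None of the 11 was called between J and NHsd after cerulein (limma; 3 were higher in J at an unadjusted p below 0.05, against 6.46% of all genes). Their median difference was 0.45, with 9 positive and 2 negative. Their part in the results was not tested. Of plasmacytoid dendritic cells, a main source of type I interferon, all 5 markers were under log2 4 on all arrays of NHsd and 4 of 5 on those of J after cerulein, and all 8 matched markers of T and NK cells were under it in every group. The islet hormone gene Ppy was called higher in J after cerulein (1.63; limma, adjusted p = 0.038), and the summed signal of the 5 matched islet markers was 12986 to 15837 in NHsd and 18213 to 21012 in J; the part of islet tissue was not tested.

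Other marker lists moved too. The summed signal of the 4 matched proliferation markers was 451, 587 and 781 on NHsd cerulein replicates 1 to 3 and 714, 991 and 674 on those of J. Of the 4, 2 were higher in J at an unadjusted p below 0.05 (limma), Mki67 (1.27) and Birc5 (0.56), against 6.46% of all genes. Neither was called (limma, adjusted p = 0.458 and 0.404). Both tested B cell markers lay lower in J after cerulein without overlap, and neither was called: Jchain, the joining chain of secreted antibody, by -1.87 (limma, adjusted p = 0.242), and Ms4a1 (CD20) at least 1.5-fold higher in NHsd (limma, adjusted p = 0.258). The share of all genes lower in J without overlap after cerulein was not counted. The summed B cell signal was 1019, 1286 and 2187 in NHsd and 504, 334 and 391 in J, and Jchain was also lower in J after saline (-2.16; limma, adjusted p = 0.341). The fibroblast and stellate cell sum was 7170 on J cerulein replicate 1 against 20516 and 16096 on J replicates 2 and 3 and 14816, 11072 and 16837 in NHsd. The neutrophil marker sum after saline was 353, 195 and 43 in NHsd and 38, 28 and 38 in J. After cerulein that sum was 57, 634 and 121 in NHsd and 331, 44 and 239 in J. No neutrophil marker was called between substrains (limma). The part of these cells in the results was not tested.

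Upstream of the members, the interferons that could be measured gave almost no signal. Of 17 genes listed for interferons and the cytokines that induce interferon gamma, Ifna13, Ifne, Ifnk, Ifnl2, Ifnl3 and Il27 had no probe set of 1 symbol and were not measured. Of the others 1 was tested, Il18, which rose with cerulein in J (0.97; limma, adjusted p = 0.00201), a call lost with equal medians (0.40). Between J and NHsd after cerulein Il18 differed by 0.63 without overlap and was not called (limma, adjusted p = 0.374). Ifnb1 stayed at or under log2 3.10 and Ifng at 2.39 on all 12 arrays. Of 11 tested receptor and JAK-STAT genes, 7 rose in NHsd and 6 in J (48.7% and 47.8% of all genes were called higher), none was called between substrains after cerulein (limma; 1 was lower in J at an unadjusted p below 0.05), and with equal medians 2 rose and 1 fell in NHsd and 1 rose and 2 fell in J. The furthest were Ptpn2, a phosphatase that damps STAT signalling (1.76 in NHsd, 1.90 in J), and Ifngr1, a chain of the interferon gamma receptor (1.21 and 1.06). Ptpn2 kept its call with equal medians in both.

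Of 11 tested genes of nucleic acid sensing outside the members, 4 rose in NHsd, and 2 rose and 1, Mavs (-0.47), fell in J, beside 48.7% and 47.8% of all genes called higher. With equal medians 1 rose in each and 3 fell in NHsd and 4 in J. Irf8, a transcription factor of myeloid cells, rose in both (at least 2.41-fold and 2.90-fold). Tbk1, a kinase that activates interferon genes (0.94 in NHsd), and Tlr3, a receptor for double-stranded RNA (at least 1.28-fold in J), lost their calls with equal medians. Irf8 and Tlr3 exceeded log2 4 only on cerulein arrays, so the filter favoured their rises. Wdfy1, an adaptor of Tlr3, went the other way between substrains. It measured 6.71, 6.18 and 6.43 in NHsd and 4.12, 4.69 and 4.37 in J after cerulein, a difference of -2.05 (limma, adjusted p = 0.00324), and 5.64, 5.52 and 5.43 against 4.44, 4.02 and 3.46 after saline, -1.56 (limma, adjusted p = 0.0435). With single arrays left out, the saline call was kept only without J cerulein replicate 1 or J saline replicate 1.

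A further list of 74 interferon-stimulated genes outside the members had 30 tested. Of these 24 rose in NHsd and 24 in J (22 and 20 with equal medians), beside 48.7% and 47.8% of all genes called higher. Among them were Mndal, a nuclear DNA-binding protein of the interferon-inducible p200 family (2.94 in NHsd, 2.85 in J), Lgals9 (galectin 9, at least 2.57-fold in NHsd) and Phf11d (at least 5.42-fold in J). Some, such as Lgals9 and Phf11d, exceeded log2 4 only on cerulein arrays, so the filter favoured their rises. After cerulein none of the 30 was called between J and NHsd (limma), 9 passed an unadjusted p of 0.05 with J higher, against 6.46% of all genes, and in 3 all J arrays lay above all NHsd arrays, against 7.94% of all genes. Their median difference was 0.33, beside 0.68 for the members.

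Members were also compared by their promoter letters, with the gap between sets not tested; in 7.94% of all genes the J arrays lay above all NHsd arrays. After cerulein, the 12 tested members with an ISRE core, such as Ifit1, Ifit3, Bst2 and Igtp, differed between substrains by a median of 0.70, and in 6 the groups did not overlap. The 15 tested members with a sequence and no ISRE core differed by a median of 0.54, and in 8 the groups did not overlap. The 9 with a GAS core, among them Gbp7, Igtp and Irgm2, differed by a median of 0.38, with 3 not overlapping, and the 18 without by 0.76, with 11. Usp18, Rtp4, Ifi27l2a, Ifi27, Iigp1, Parp9, Parp14, Tor3a, Zbp1, Dhx58, Oas2, Mx1 and Mx2 had no sequence in the table used.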

How the data were processed

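Per the submitters' processing notes the authors' tools were GCRMA and Partek, with no version; what they deposited is 1 log2 signal per probe set and array, and other steps are not given in the sources used here. Per the labels, RNA was extracted with Trizol and cleaned on a Qiagen column. Values were used as deposited. Of 45101 probe sets, 34958 carried 1 symbol by GEO's platform annotation, 932 several and 9211 none; 34754 matched RefSeq by Entrez number and 0 symbols changed. A probe set was kept above log2 4 on at least 3 of 12 arrays (12780 kept), and the kept one with the highest mean stood for its gene. limma 3.58.1 in R 4.3.3 fitted 1 mean per group over 12 arrays (8 residual degrees of freedom, median prior 4.37, intensity trend, two-sided), with Benjamini-Hochberg adjustment over 8505 genes and calls at an adjusted p below 0.05. A gene under log2 4 on all arrays of a group gives only a bound, the brighter group's mean against log2 4, written "at least". Summed marker signals add linear values. Nothing in the labels beyond the wording of biological replicates says how the mice were housed, so p-values measure the spread between these mice.

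The members and lists were chosen with earlier results of these data known. Values on every array were given, by a rule, for members called between substrains and for the 5 called members with the largest rise in each cerulein effect; up to 2 called genes per pathway list were named, and further genes were chosen after their values were seen. Same-numbered mice did not deviate together (18 pairs of arrays, correlations from -0.16 to 0.34), so replicate numbers were not used as pairs. The pipeline was tested on simulated data. Alternatives were 2 other scalings (equal medians, quantile), a filter of log2 6 or none, fits without the trend or with robust moderation, a gene's mean over its probe sets, a fit of the compared groups alone, a replicate block, a minimum of 2-fold, and each array left out. Figures used Python 3.11.15 and matplotlib 3.10.9.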

Additional observations from a re-analysis of the deposited data

How the results depend on the processing

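The 3 members called higher in J after cerulein became 1 of 46 without the filter, 1 with the replicate block and 0 with only the 2 groups compared, a fit that called no gene of the 8505 (410 were higher and 151 lower in J at an unadjusted p below 0.05); leaving out single arrays gave 1 to 10. The 25 called with cerulein in NHsd became 11 with equal medians and 11 with quantile normalization (in each 10 higher and 1 lower, Irf1), 15 without the filter and 15 of 17 tested with a filter at log2 6; leaving out single arrays gave 16 to 25, with 16 without NHsd saline replicate 2. The 32 in J became 16 of 17 with the filter at log2 6, and 31 to 33 with single arrays left out. The 0 for the difference of effects became 1 (Ifit1) with quantile normalization, with no filter and with no intensity trend, and 0 to 1 with single arrays left out. In saline the count was 0 in every alternative run. The replicate block changed no call of a member other than those of Usp18 (adjusted p by limma 0.058) and Rtp4 (adjusted p by limma 0.0673) after cerulein, which it lost. Changes of sign among called members were those of Trim25 and Irf9 under another scaling, as given above. Members near log2 4 have inexact sizes, and those under it on all arrays of both groups have none.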
